A study of Mus musculus with 6 samples.

Results

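The genes described here are 46 genes of DNA replication and the cell cycle, measured by RNA-seq in the eye region of mouse embryos with and without *Rdh10*. They were chosen by gene name from the deposited expression table, which lists 26437 genes, and were sorted by role into 17 genes of S phase and replication, 11 genes of G1 and of the G1/S transition, and 18 genes of G2 and mitosis. The study compared wild-type embryos with *Rdh10* knockout (KO; *Rdh10*-/-) embryos at embryonic day 10 (E10). RDH10 oxidizes retinol to retinaldehyde, the first step in the synthesis of retinoic acid, so the comparison asks which genes respond when the head lacks retinoic acid. Embryos came from heterozygous parents whose strain was outbred, mixing Black Swiss with C57BL/6. No drug or dose was involved, and which part of the gene the knockout allele removes is not given in the sources used here. Each genotype had 3 libraries, each made from the pooled tissue of 3 embryos, so 9 embryos stood behind each genotype. The dissected piece was the front of the head, named eye tissue by the study and embryonic craniofacial tissue in its labels. It held the optic vesicles, the frontonasal tissue around them and some forebrain. In such bulk tissue, fewer dividing cells and less RNA per dividing cell cannot be told apart.

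The cell cycle is driven by cyclins that activate cyclin-dependent kinases. In G1, D-type cyclins with CDK4 or CDK6, and then E-type cyclins with CDK2, phosphorylate the retinoblastoma protein and release E2F transcription factors, which switch on the genes for DNA replication. Cyclin A and cyclin B with CDK1 then carry the cell into mitosis, and inhibitors such as p27 (encoded by *Cdkn1b*) hold the kinases back. Most cells of the early optic vesicle, the forebrain wall and the facial mesenchyme are dividing at this stage.

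The libraries held 16392777 to 27101025 reads assigned to genes. Values are normalised read counts, which are reads divided by 1 factor per library. A gene was called lower or higher when limma, run on log2(value + 0.1) over 22921 genes, gave a Benjamini-Hochberg adjusted p below 0.05; fold changes are *Rdh10* KO minus wild-type on that log2 scale, with their standard error (SE). All 46 cell cycle genes passed the filter on low values, and 45 of them had a mean above 1000. Among all tested genes 9.12% were called lower and 10.3% higher; among the 4820 genes with a mean above 1000, the range of abundance of these 45 genes, 22.8% were lower and 19% higher. *Rdh10* itself read 399, 342 and 381 normalised counts in wild-type and 183, 142 and 181 in *Rdh10* KO, with no overlap (log2 fold change -1.16, SE 0.13, limma adjusted p = 7.35e-05), so its transcript was reduced to 45.1% of wild-type and not absent.

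Of the 46 genes, 15 were lower in *Rdh10* KO tissue, 5 were higher and 26 were not called, and the median log2 fold change was -0.13 against 0.0036 over all tested genes and -0.036 over genes with a mean above 1000. The lower calls made up 32.6% of the 46 genes and the higher calls 10.9%. In S phase 8 of 17 genes were lower and 1 higher, with a median of -0.19, and in G1 and G1/S control 5 of 11 were lower and 1 higher, with a median of -0.25. In G2 and mitosis 2 of 18 genes were lower and 3 were higher, with a median of -0.054. Groups that did not overlap, with every *Rdh10* KO library below every wild-type library, were found for 21 genes, and the opposite for 7; over all tested genes 17% and 17.6% did so, and over genes with a mean above 1000, 34% and 26.1%. All changes were modest: no gene of the 46 passed a log2 limit of 0.85. Of all tested genes, 0.886% were called lower and 2.41% higher beyond that limit. Among the 4820 genes with a mean above 1000, 6 were called lower and 73 higher beyond it.

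**Figure D1:**
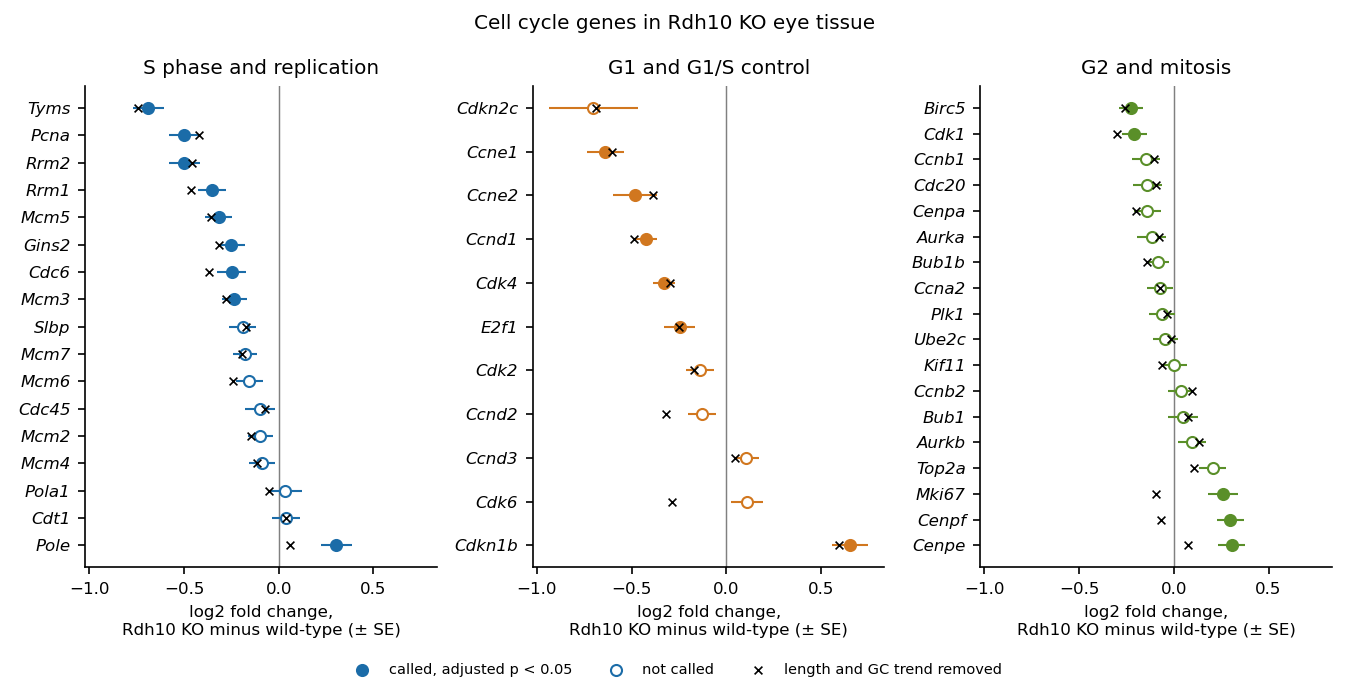
Log2 fold change of each of the 46 genes, *Rdh10* KO minus wild-type, with bars for the SE, in 3 panels by role; filled circles are genes called at a limma adjusted p below 0.05, open circles are genes not called, and crosses give the value after the trend with transcript length and GC content was removed. Most S phase and G1 genes lie left of 0, while the genes of mitosis lie on both sides of it and the 3 highest of them move toward 0 or past it when the trend is removed.

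These fold changes varied with transcript length, and values for length stand beside the results that follow. Among 4818 genes with a mean above 1000 and a known transcript, the log2 fold change increased with the length of the longest annotated transcript (Spearman's rho 0.50 across genes, which are not independent replicates). The median log2 fold change was -0.27 for transcripts up to 1000 bp, -0.23 from there to 2000 bp, -0.11 to 4000 bp, 0.061 to 8000 bp and 0.31 above 8000 bp. Among the 46 cell cycle genes the same rho was 0.37. Of the 9 genes with transcripts above 5000 bp, 7 had a positive fold change, 4 were called higher and 1 lower, whereas of the 37 shorter genes 7 had a positive fold change, 1 was called higher and 14 lower. As an alternative chosen after seeing the data, a trend of log2 values with length and GC content was removed from each library separately. This also removes differences between libraries of 1 genotype that follow length or GC content. It would equally remove a difference between the genotypes that follows them. The SE changed with it, from 0.071 to 0.061 for *Mcm6* and from 0.080 to 0.081 for *E2f1*, so a gained call need not come from the fold change alone. With the trend removed, 21 of the 46 genes were lower, among them all 15 lower calls above, and 1 was higher, *Cdkn1b*. The shares over all genes were then 12.1% and 8.25%, and over genes with a mean above 1000 they were 31.4% and 13.2%. The group medians became -0.24 for S phase, -0.30 for G1 and G1/S control and -0.071 for G2 and mitosis, beside -0.095 over genes with a mean above 1000. The removal was not complete, since a rho of 0.16 with length remained among genes with a mean above 1000, and the part of length in the cell cycle results was not tested further.

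**Figure D2:**
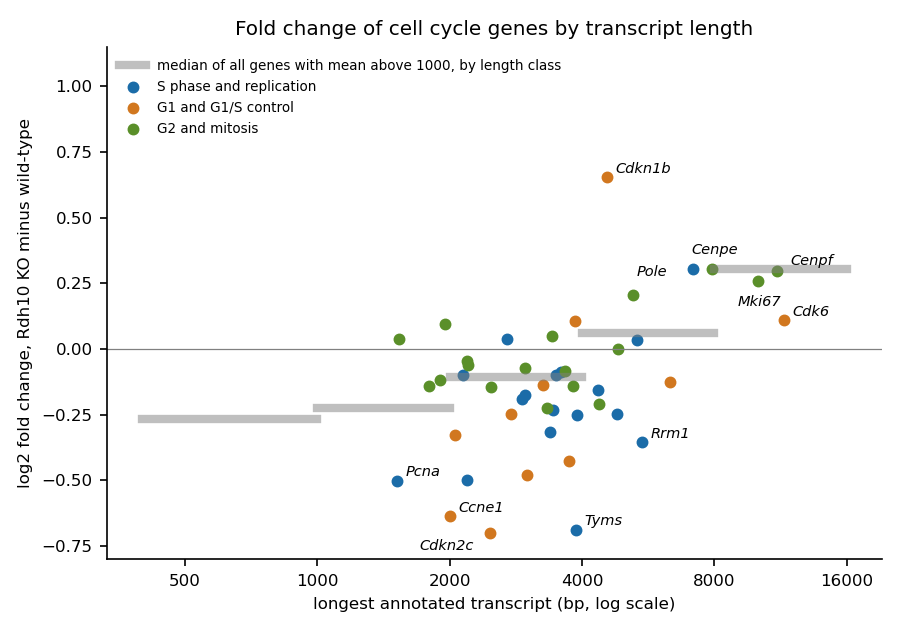
Log2 fold change, *Rdh10* KO minus wild-type, of the 46 cell cycle genes (points, coloured by role) against the length of the longest annotated transcript in bp on a log axis; grey bars are the median of all genes with a mean above 1000 in each length class, where the outer ends of the first and last bar are arbitrary. At the long end *Cenpf* and *Mki67* lie near the bar of the longest class (median 0.31), *Pole* and *Cenpe* lie above the bar of theirs (0.061). *Cdkn1b* lies far above its bar, while *Tyms*, *Ccne1* and *Pcna* lie below theirs.

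The genes of replication are known to carry E2F sites near their starts, and genes of G2 and mitosis the cell cycle homology region (CHR) with CCAAT boxes. RefSeq promoters on GRCm38.p6 were matched by symbol for 38 of the 46 genes (41 promoters); *Mcm4*, *Gins2*, *Pole*, *Ccne2*, *Ccnd1*, *Ccnd2*, *Ccna2* and *Aurkb* were not matched. The 250 bases before each RefSeq start were searched on both strands for 3 E2F letter strings (TTTCGCGC, TTTGGCGC and TTTCCCGC), for the CHR letters TTTGAA and for CCAAT, counting overlapping matches. For several genes, *Cdc6* and *E2f1* among them, these bases lie inside the gene as annotated by GENCODE M21, so another start may lie upstream of them. At least 1 E2F string was present in 33.3% of the 15 S phase promoters, 10% of the 10 G1 and G1/S promoters and 6.25% of the 16 promoters of G2 and mitosis, against 1.53% of all 32851 promoters. TTTGAA was present in 13.3%, 0% and 43.8% of the 3 groups against 16% of all promoters, and CCAAT in 80%, 30% and 93.8% against 33.8%. Promoters with an E2F string were 25% of the 12 promoters of genes called lower, 16% of the 25 of genes not called and 0 of the 4 of genes called higher. The promoters of a few genes are given here because they hold these arrangements in genes that differed in their call. Capitals mark the matched letters, in either orientation, so that GCGGGAAA and ATTGG are TTTCCCGC and CCAAT read from the other strand.
*Mcm5*, called lower, at chr8:75109259-75109508 (+ strand), and *Mcm6*, its partner in the same helicase, called lower only with the trend removed, at chr1:128359706-128359955 (- strand), both hold a pair of overlapping E2F strings on opposite strands together with CCAAT boxes.
Mcm5: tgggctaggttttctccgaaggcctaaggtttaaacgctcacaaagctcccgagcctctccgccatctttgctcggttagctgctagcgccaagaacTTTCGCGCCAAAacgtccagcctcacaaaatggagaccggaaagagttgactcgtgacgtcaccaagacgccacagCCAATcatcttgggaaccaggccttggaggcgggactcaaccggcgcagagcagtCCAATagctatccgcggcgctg
Mcm6: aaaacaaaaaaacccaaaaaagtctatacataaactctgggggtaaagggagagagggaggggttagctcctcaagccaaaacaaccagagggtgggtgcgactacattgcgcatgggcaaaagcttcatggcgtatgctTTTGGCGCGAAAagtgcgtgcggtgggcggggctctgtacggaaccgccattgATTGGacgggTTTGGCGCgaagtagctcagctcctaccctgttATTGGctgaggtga
*Cdc6*, called lower, at chr11:98907901-98908150 (+ strand), holds a single E2F string, and *Tyms*, the S phase gene with the largest fall, at chr5:30073626-30073875 (- strand), holds none of the letters searched.
Cdc6: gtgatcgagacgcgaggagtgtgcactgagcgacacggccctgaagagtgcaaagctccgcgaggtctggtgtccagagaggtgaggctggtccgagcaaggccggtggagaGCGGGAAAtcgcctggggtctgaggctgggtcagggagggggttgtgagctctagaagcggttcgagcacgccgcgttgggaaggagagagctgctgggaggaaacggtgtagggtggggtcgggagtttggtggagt
Tyms: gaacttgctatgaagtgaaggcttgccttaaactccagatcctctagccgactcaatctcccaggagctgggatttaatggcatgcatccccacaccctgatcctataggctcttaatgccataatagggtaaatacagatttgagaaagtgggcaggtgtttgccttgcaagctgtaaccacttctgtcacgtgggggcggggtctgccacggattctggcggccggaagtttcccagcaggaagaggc
*Cdk1*, called lower, at chr10:69352913-69353162 (- strand), holds an E2F string together with CHR and CCAAT letters, and *Mki67*, called higher, at chr7:135716380-135716629 (- strand), holds the CHR and CCAAT letters alone.
Cdk1: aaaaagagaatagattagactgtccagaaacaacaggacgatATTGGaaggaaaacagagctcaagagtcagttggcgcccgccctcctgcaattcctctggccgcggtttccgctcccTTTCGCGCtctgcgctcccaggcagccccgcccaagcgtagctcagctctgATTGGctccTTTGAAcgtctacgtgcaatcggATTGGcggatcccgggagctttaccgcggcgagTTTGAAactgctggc
Mki67: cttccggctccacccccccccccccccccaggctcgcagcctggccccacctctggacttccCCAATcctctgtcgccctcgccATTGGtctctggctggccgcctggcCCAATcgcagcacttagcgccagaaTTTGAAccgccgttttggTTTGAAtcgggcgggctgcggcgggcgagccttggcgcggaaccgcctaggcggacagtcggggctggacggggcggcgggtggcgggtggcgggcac

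Among the genes of S phase, all 3 that supply deoxynucleotides were lower, and 1 of them, *Tyms*, had the largest fall. *Tyms* (ENSMUSG00000025747.12, chr5:30058202-30073617), which encodes thymidylate synthase and makes dTMP, read 2772, 2821 and 3117 normalised counts in wild-type and 1950, 1864 and 1605 in *Rdh10* KO. The highest *Rdh10* KO value was well below the lowest wild-type value, and the mean fell from 2903 ± 187 to 1806 ± 179.8 (SD, n = 3 each), which is 62.2% of wild-type (log2 fold change -0.69, SE 0.084, limma adjusted p = 0.000103). *Rrm2* (ENSMUSG00000020649.11, chr12:24708241-24714146), the small subunit of ribonucleotide reductase that limits its activity in S phase, read 9911, 10102 and 10186 in wild-type and 7798, 7516 and 6175 in *Rdh10* KO. The groups did not overlap, and *Rdh10* KO replicate 3 was the lowest (log2 fold change -0.50, SE 0.082, limma adjusted p = 0.00082). *Rrm1*, the large subunit, read 10264, 10366 and 9980 in wild-type and 7623, 8983 and 7435 in *Rdh10* KO (log2 fold change -0.35, SE 0.075, limma adjusted p = 0.00455). Its transcript of 5475 bp is the only one above 5000 bp among the lower genes, and its fold change was -0.47 with the length and GC trend removed. The ratio of *Rrm1* to *Rrm2* within a library was 1.04, 1.03 and 0.98 in wild-type and 0.978, 1.20 and 1.20 in *Rdh10* KO, and these values overlapped (exact two-sided permutation test, p = 0.4, adjusted p = 0.4 over 8 pairs).

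*Pcna* (ENSMUSG00000027342.14, chr2:132249162-132253314), the sliding clamp that holds polymerases on DNA, fell to 71% of wild-type. It read 9257, 9897 and 9719 normalised counts in wild-type and 7159, 7383 and 5944 in *Rdh10* KO, without overlap (log2 fold change -0.50, SE 0.080, limma adjusted p = 0.000714). Its transcript of 1518 bp was the shortest of the 46, and with the trend removed its fold change was -0.42 (adjusted p = 0.000395). In the MCM helicase, which unwinds DNA at the fork, all 6 subunits had a negative fold change, from -0.32 to -0.088, and 2 of the 6 were called. *Mcm5* (chr8:75109569-75128439) read 9849, 9894 and 9598 in wild-type and 8458, 7948 and 7188 in *Rdh10* KO (log2 fold change -0.32, SE 0.070, limma adjusted p = 0.00559). *Mcm3* read 7735, 8016 and 7353 in wild-type and 6332, 6946 and 6378 in *Rdh10* KO (log2 fold change -0.23, SE 0.066, limma adjusted p = 0.023). Both sets of libraries stood apart, although the call for *Mcm3* was lost without wild-type replicate 1 (adjusted p = 0.0944), wild-type replicate 2 (0.137) or *Rdh10* KO replicate 1 (0.0672). *Mcm6*, whose promoter resembles that of *Mcm5* in the letters searched, read 8794, 9004 and 8725 in wild-type and 8098, 8566 and 7199 in *Rdh10* KO, and *Mcm7* read 8480, 8856 and 8294 against 7710, 7719 and 7244. In both genes the groups did not overlap but the test was missed (adjusted p = 0.153 and 0.0644). With the trend removed both were called lower (-0.24, adjusted p = 0.0125, and -0.19, adjusted p = 0.031), which made 4 of the 6 subunits lower. *Mcm2* and *Mcm4* overlapped between the genotypes (adjusted p = 0.351 and 0.433). The exons of *Mcm7* overlap *Cops6* and *Ap4m1* on the opposite strand, and whether counting used strand is not given in the sources used here.

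The genes that load and start the helicase were divided. *Cdc6*, which loads the MCM ring at origins, read 1724, 1618 and 1784 normalised counts in wild-type and 1506, 1471 and 1338 in *Rdh10* KO, a fall with no overlap (log2 fold change -0.25, SE 0.077, limma adjusted p = 0.0352). *Gins2*, a subunit of the complex that activates the helicase, read 1886, 1795 and 1758 in wild-type and 1477, 1533 and 1562 in *Rdh10* KO (log2 fold change -0.25, SE 0.071, limma adjusted p = 0.0225). *Gins2* shares 2758 bp of exon with *Gse1* on the opposite strand, the longest such overlap in the set. The call for *Cdc6* held in 1 of 6 fits that each left out 1 library, the fit without *Rdh10* KO replicate 1, with adjusted p of 0.0535 to 0.137 in the other fits. *Gins2* was lost without wild-type replicate 1 (adjusted p = 0.12), wild-type replicate 2 (0.0862) or *Rdh10* KO replicate 1 (0.0569). *Cdt1*, the partner of CDC6 in loading, read 2081, 2110 and 1871 in wild-type and 2018, 2030 and 2174 in *Rdh10* KO, and the groups overlapped (log2 fold change 0.039, SE 0.074, limma adjusted p = 0.773). The ratio of *Cdc6* to *Cdt1* was 0.828, 0.767 and 0.953 in wild-type and 0.746, 0.725 and 0.615 in *Rdh10* KO. The ratios did not overlap (log2 difference -0.29, exact two-sided permutation, p = 0.1 and adjusted p = 0.16; with 3 libraries against 3 no p below 0.1 can be reached). *Cdc45*, which joins the active helicase, was not called (log2 fold change -0.10, SE 0.079, limma adjusted p = 0.437), and neither was *Slbp*, which binds histone mRNA in S phase (-0.19, SE 0.072, limma adjusted p = 0.0802, no overlap), except without *Rdh10* KO replicate 2 (-0.24, adjusted p = 0.0419).

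Neither of the polymerase catalytic subunits in the set was called lower. *Pole*, the leading strand polymerase, read 1442, 1414 and 1407 normalised counts in wild-type and 1563, 1838 and 1875 in *Rdh10* KO, and was the only S phase gene of the set called higher (log2 fold change 0.30, SE 0.082, limma adjusted p = 0.0179). Its transcript of 7163 bp is long, and with the trend removed its fold change was 0.059 (adjusted p = 0.639). That call also held in 1 of the 6 fits that left out a library, the fit without *Rdh10* KO replicate 1 (adjusted p of 0.0584 to 0.0849 in the others). *Pola1*, the polymerase that extends primers, overlapped between the genotypes (log2 fold change 0.036, SE 0.085, limma adjusted p = 0.828).

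**Figure D3:**
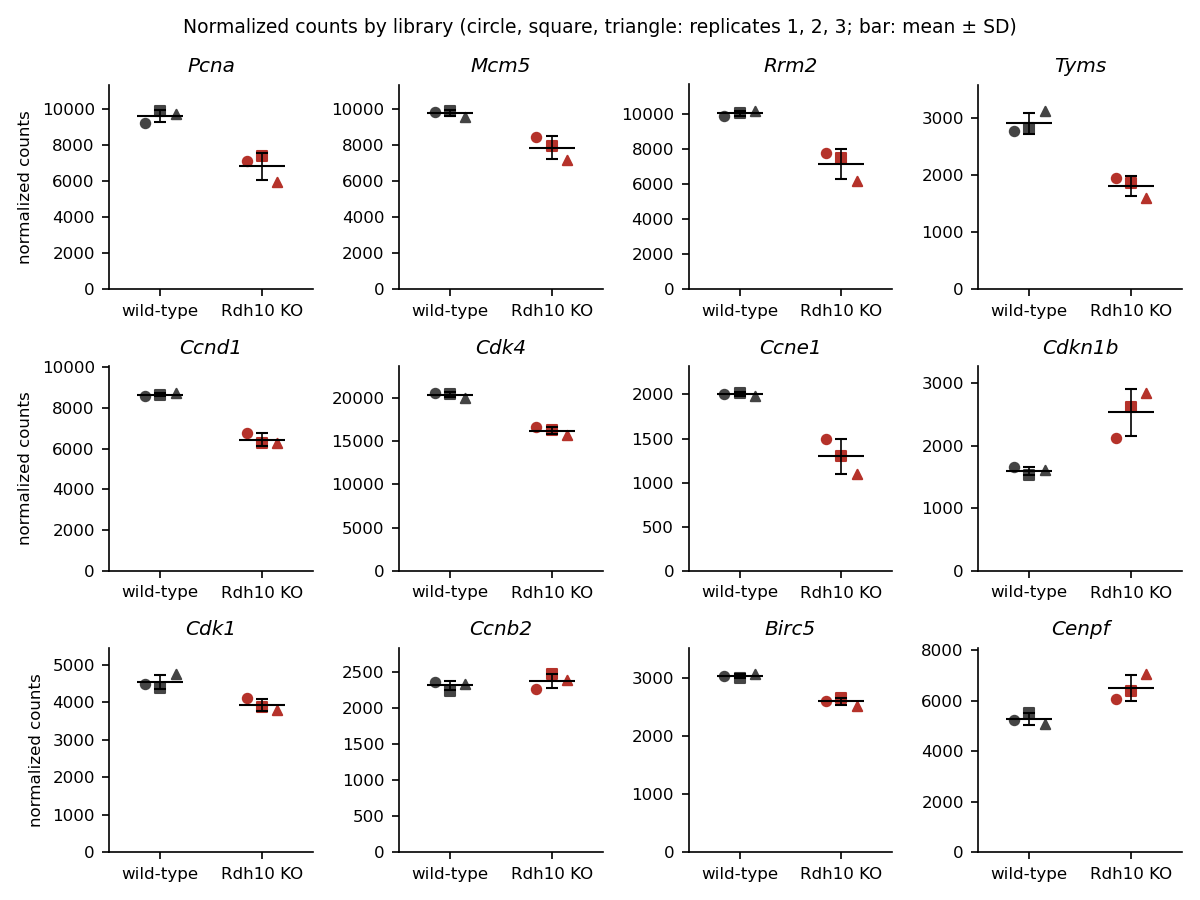
Normalised read counts in each library for 12 of the genes, wild-type in grey and *Rdh10* KO in red, each y axis from 0; circles, squares and triangles are replicates 1, 2 and 3, which are unpaired, and bars give the mean ± SD of 3 libraries. *Pcna*, *Mcm5*, *Rrm2*, *Tyms*, *Ccnd1*, *Cdk4*, *Ccne1*, *Cdk1* and *Birc5* are lower in every *Rdh10* KO library, *Cdkn1b* and *Cenpf* are higher in every one, and *Ccnb2* overlaps.

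In G1 and at the G1/S transition, 5 of the 11 genes fell, namely both E-type cyclins, *Ccnd1*, *Cdk4* and *E2f1*, and the inhibitor gene *Cdkn1b* rose. *Ccne1* (ENSMUSG00000002068.16, chr7:38097984-38107534), cyclin E1, read 2010, 2020 and 1977 normalised counts in wild-type, a narrow range, and 1496, 1303 and 1094 in *Rdh10* KO. Its mean in *Rdh10* KO tissue was 64.8% of wild-type (log2 fold change -0.64, SE 0.098, limma adjusted p = 0.000524). *Ccne2*, cyclin E2, read 1393, 1257 and 1622 in wild-type and 1160, 1057 and 852 in *Rdh10* KO (log2 fold change -0.48, SE 0.12, limma adjusted p = 0.00958). The wild-type libraries varied more for *Ccne2* than for *Ccne1*, and without wild-type replicate 3 the *Ccne2* call was missed (adjusted p = 0.0684). The exons of *Ccne2* share 609 bp with *Ints8* on the opposite strand, which averaged 2522 normalised counts against 1224 for *Ccne2*. The ratio of *Ccne1* to *Ccne2* overlapped between the genotypes (log2 difference -0.16, exact two-sided permutation test, p = 0.4). *E2f1*, an activating E2F factor, read 1134, 1171 and 1249 in wild-type and 1058, 952 and 986 in *Rdh10* KO. That fall was close to the threshold (log2 fold change -0.25, SE 0.080, limma adjusted p = 0.044), and it was called in 1 of 6 fits that left out a library, the fit without *Rdh10* KO replicate 1, with adjusted p of 0.0784 to 0.165 in the others.

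Of the 3 D-type cyclins, which respond to growth signals, 1 was called lower. *Ccnd1* (ENSMUSG00000070348.5, chr7:144929931-144939925), cyclin D1, read 8597, 8625 and 8748 normalised counts in wild-type and 6794, 6283 and 6266 in *Rdh10* KO, or 74.5% of wild-type (log2 fold change -0.43, SE 0.063, limma adjusted p = 0.000389). The exons of *Ccnd1* share 1100 bp with *LTO1* on the opposite strand, which averaged 503 normalised counts against 7552 for *Ccnd1*. *Ccnd2*, cyclin D2, read 15966, 15900 and 15115 in wild-type and 15990, 14050 and 13115 in *Rdh10* KO, where replicate 1 stood at the wild-type level (log2 fold change -0.13, SE 0.075, limma adjusted p = 0.283). *Ccnd3*, cyclin D3, read 5243, 5165 and 5135 in wild-type and 5506, 5303 and 5931 in *Rdh10* KO, above wild-type in every library but not called (log2 fold change 0.11, SE 0.065, limma adjusted p = 0.306). The ratio of *Ccnd1* to *Ccnd3* was 1.64, 1.67 and 1.70 in wild-type and 1.23, 1.18 and 1.06 in *Rdh10* KO, and the ratio of *Ccnd1* to *Ccnd2* was 0.538, 0.542 and 0.579 in wild-type and 0.425, 0.447 and 0.478 in *Rdh10* KO. Neither ratio overlapped between the genotypes, with log2 differences of -0.53 and -0.30 (exact two-sided permutation test, p = 0.1 for each, adjusted p = 0.16). Transcript length differs within the trio, at 3740 bp for *Ccnd1*, 6330 bp for *Ccnd2* and 3858 bp for *Ccnd3*, and with the trend removed *Ccnd2* was also lower (-0.32, adjusted p = 0.00585) while *Ccnd3* was not called (0.044, adjusted p = 0.63).

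Of the kinases that pair with D-type cyclins, *Cdk4* was lower and *Cdk6* was not called. *Cdk4* (ENSMUSG00000006728.12, chr10:127063534-127067920) had the highest level of the 46 genes per length, at 6254 normalised counts per kb of exon in wild-type. It read 20554, 20400 and 20002 normalised counts in wild-type and 16563, 16267 and 15722 in *Rdh10* KO, with little spread in either group (log2 fold change -0.33, SE 0.060, limma adjusted p = 0.00179). Its exons share 641 bp with *Tspan31* on the opposite strand. *Cdk6*, at 86.9 counts per kb of exon in wild-type, overlapped between the genotypes (log2 fold change 0.11, SE 0.084, limma adjusted p = 0.421). The ratio of *Cdk4* to *Cdk6* was 17.2, 17.5 and 15.6 in wild-type and 11.4, 13.1 and 12.6 in *Rdh10* KO, without overlap (log2 difference -0.44, exact two-sided permutation test, p = 0.1, adjusted p = 0.16). The longest transcript of *Cdk6*, at 11525 bp, is the longest of the set, and its fold change with the trend removed was -0.29 (adjusted p = 0.026), the opposite sign. *Cdk2*, the partner of cyclin E, was below wild-type in every *Rdh10* KO library but not called (log2 fold change -0.14, SE 0.073, limma adjusted p = 0.22).

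*Cdkn1b* (ENSMUSG00000003031.14, chr6:134920401-134925513), which encodes p27, an inhibitor of cyclin E and CDK2, had the largest rise of the 46 genes. It read 1651, 1531 and 1606 normalised counts in wild-type and 2124, 2621 and 2845 in *Rdh10* KO, so that the lowest *Rdh10* KO library lay above the highest wild-type library. The mean rose from 1596 ± 60.6 to 2530.1 ± 369 (SD, n = 3 each), which is 159% of wild-type (log2 fold change 0.65, SE 0.096, limma adjusted p = 0.000379). With the length and GC trend removed the rise was 0.60 (adjusted p = 0.000685), and it was called in 6 of 6 fits that left out 1 library. *Cdkn2c*, which encodes p18, an inhibitor of CDK4 and CDK6, was the least abundant gene of the set. It read 122, 75.7 and 114 in wild-type and 68.0, 49.1 and 73.0 in *Rdh10* KO, with a negative fold change as large as that of *Tyms* and a wide error (-0.70, SE 0.24, limma adjusted p = 0.0517). Without wild-type replicate 2, the lowest wild-type library, it was called lower (-0.91, adjusted p = 0.0345).

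**Figure D4:**
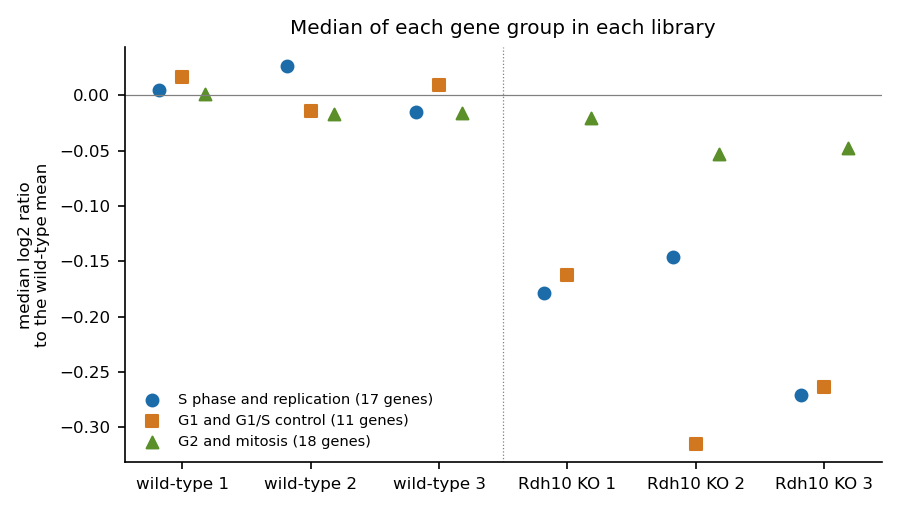
Median over each gene group of the log2 ratio to the wild-type mean, for each of the 6 libraries; circles are 17 S phase genes, squares 11 genes of G1 and G1/S control and triangles 18 genes of G2 and mitosis. In the *Rdh10* KO libraries the S phase medians are -0.18, -0.15 and -0.27 and those of G1 and G1/S control -0.16, -0.31 and -0.26, while those of G2 and mitosis are -0.021, -0.053 and -0.048.

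The genes of G2 and mitosis gave no shift of that size in any library. *Cdk1* (chr10:69335146-69352938), the kinase that drives mitosis, read 4501, 4396 and 4753 normalised counts in wild-type and 4124, 3870 and 3812 in *Rdh10* KO (log2 fold change -0.21, SE 0.066, limma adjusted p = 0.0385). *Birc5*, which encodes survivin of the chromosomal passenger complex, read 3034, 2995 and 3057 in wild-type and 2604, 2644 and 2519 in *Rdh10* KO (log2 fold change -0.23, SE 0.064, limma adjusted p = 0.0229). Both were lower in every *Rdh10* KO library, and in the fits that left out 1 library the fold changes stayed from -0.24 to -0.18 for *Cdk1* and from -0.24 to -0.21 for *Birc5*. Leaving out any 1 wild-type library lost both calls (adjusted p of 0.0909 to 0.147 for *Cdk1* and 0.0765 to 0.0911 for *Birc5*), and *Cdk1* was also lost without *Rdh10* KO replicate 2 (0.0854) or replicate 3 (0.0691). The cyclins of this phase were not called: *Ccna2* had a log2 fold change of -0.073 (SE 0.067, limma adjusted p = 0.513), *Ccnb1* of -0.15 (SE 0.074, 0.199) and *Ccnb2* of 0.038 (SE 0.069, 0.762). Their groups overlapped.

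The 3 genes of mitosis that were called higher all have long transcripts. *Cenpe*, a kinetochore motor (7910 bp), read 3187, 3358 and 3081 normalised counts in wild-type and 3669, 4140 and 4091 in *Rdh10* KO (log2 fold change 0.30, SE 0.071, limma adjusted p = 0.00803). *Cenpf*, a kinetochore protein (chr1:189640606-189688086; 11130 bp), read 5227, 5537 and 5093 in wild-type and 6070, 6383 and 7052 in *Rdh10* KO (log2 fold change 0.30, SE 0.071, limma adjusted p = 0.0094). *Mki67* (chr7:135689784-135716361; 10061 bp), the Ki-67 protein that coats mitotic chromosomes and marks dividing cells, read 9590, 9422 and 8534 in wild-type and 9825, 11108 and 12070 in *Rdh10* KO (log2 fold change 0.26, SE 0.080, limma adjusted p = 0.0356). None of the 3 overlapped between the genotypes. With the length and GC trend removed, the fold changes were 0.074 for *Cenpe*, -0.067 for *Cenpf* and -0.096 for *Mki67*, with adjusted p of 0.482, 0.515 and 0.335, and no gene of this group was called higher. *Cenpf* was lost without wild-type replicate 1 (adjusted p = 0.0534) or replicate 3 (0.0516), and *Mki67* kept its call only without *Rdh10* KO replicate 1 (adjusted p of 0.074 to 0.158 in the other fits). *Top2a*, the topoisomerase that separates sister DNA, read 15377, 16131 and 14636 in wild-type and 16440, 18276 and 18468 in *Rdh10* KO and just missed the threshold (log2 fold change 0.20, SE 0.069, limma adjusted p = 0.0524); without *Rdh10* KO replicate 1 it was called (0.26, adjusted p = 0.0238), and with the trend removed its fold change was 0.11 (adjusted p = 0.296).

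The other 9 genes of mitosis had small fold changes. The mitotic kinase genes *Aurka*, *Aurkb*, *Plk1* and *Bub1*, the checkpoint gene *Bub1b*, the genes *Cdc20* and *Ube2c* of the pathway that degrades mitotic cyclins, the centromeric histone gene *Cenpa* and the spindle motor gene *Kif11* had log2 fold changes from -0.14 to 0.096, and none was called. Only *Bub1b* had groups that did not overlap, at 5813, 5740 and 5556 normalised counts in wild-type and 5474, 5320 and 5341 in *Rdh10* KO. The ratio of *Aurka* to *Aurkb*, both Aurora kinases of the set, was 1.09, 1.12 and 1.19 in wild-type and 1.03, 0.909 and 0.993 in *Rdh10* KO, without overlap (log2 difference -0.21, exact two-sided permutation test, p = 0.1, adjusted p = 0.16). The ratio of *Ccnb1* to *Ccnb2* did overlap (log2 difference -0.18, p = 0.2 by the same exact test, adjusted p = 0.267).

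Summed over each group, the ratio of replication to mitosis genes was lower in every *Rdh10* KO library. The summed normalised counts of the 17 S phase genes, divided by those of the 18 genes of G2 and mitosis, gave 1.05, 1.07 and 1.06 in wild-type and 0.887, 0.902 and 0.788 in *Rdh10* KO. The S phase sum was 94602 to 97462 in wild-type and 74525 to 84920 in *Rdh10* KO, while the sum for G2 and mitosis was 89592 to 91129 in wild-type and 91936 to 94589 in *Rdh10* KO. These sums weigh abundant genes most, so *Top2a* and *Mki67*, which have long transcripts, carry much of the second sum. Libraries differed more from each other within *Rdh10* KO than within wild-type. The chi-square per degree of freedom between pairs of libraries was 13.5, 19.0 and 13.9 in *Rdh10* KO and 2.8, 6.0 and 5.7 in wild-type. This measure also depends on read depth, and limma shares the variance of a gene between the genotypes. Among the *Rdh10* KO libraries, replicate 3 lay lowest, with the lowest of all 6 values for 23 of the 46 genes and for 12 of the 17 S phase genes. Without it, 12 of the 46 genes were called lower and 3 higher, beside 1731 and 1914 over all genes tested. The S phase median stayed within -0.24 to -0.15 over all 6 fits that left out a library.

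A further 142 genes of the cell cycle machinery, of which 141 passed the filter, were described in the same way. In this list 45 genes were lower and 9 higher, with a median log2 fold change of -0.12 and groups that did not overlap for 65 lower and 20 higher genes. The calls made up 31.9% and 6.38% of the 141 genes, against 9.12% and 10.3% over all tested genes. Over genes with a mean above 1000 the shares called were 22.8% and 19%. Groups did not overlap for 17% and 17.6% of all tested genes, and for 34% and 26.1% of those with a mean above 1000. The replication fork held the largest share of lower genes, 18 of 26 with none higher and a median of -0.28. They included *Rfc3*, a subunit of the clamp loader (log2 fold change -0.69, SE 0.088, limma adjusted p = 0.000152), *Fen1*, which trims Okazaki fragments (-0.63, SE 0.083, limma adjusted p = 0.000172), and *Pold3*, a subunit of the lagging strand polymerase (-0.54, SE 0.091, limma adjusted p = 0.000955). Deoxynucleotide supply had 4 of 7 lower and 1 higher, with a median of -0.41. *Tk1*, which salvages thymidine, fell (-0.49, SE 0.086, limma adjusted p = 0.00133). *Rrm2b*, the p53-induced form of the small ribonucleotide reductase subunit, rose (0.52, SE 0.17, limma adjusted p = 0.039). That rise was called only without wild-type replicate 1 among the 6 fits that left out a library (adjusted p of 0.0753 to 0.184 in the others). Origin licensing and firing had 8 of 19 lower, led by *Gins1* of the same complex as *Gins2* (-0.65, SE 0.086, limma adjusted p = 0.000203), and 1 higher, *Ticrr*, which encodes an origin firing factor (0.48, SE 0.084, limma adjusted p = 0.00125). The longest transcript of *Ticrr* has 7199 bp, and with the trend removed its fold change was 0.24 (adjusted p = 0.0384).

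Calls among the regulators upstream of S phase went in both directions, as they did over all genes. In the E2F, RB and MYC list 3 of 17 were lower (17.6%) and 2 higher (11.8%), with a median of -0.10. The shares were 9.12% and 10.3% over all tested genes, and 22.8% and 19% over genes with a mean above 1000. The lower genes beside *E2f2* were *E2f6* (-0.28) and *Tfdp1* (-0.27), named after their values were seen. *E2f2*, like *E2f1* an activating factor, read 565, 603 and 621 normalised counts in wild-type and 422, 402 and 429 in *Rdh10* KO (log2 fold change -0.51, SE 0.093, limma adjusted p = 0.00164). *Rb1*, which encodes the retinoblastoma protein that restrains E2F, read 401, 387 and 435 in wild-type and 621, 647 and 831 in *Rdh10* KO, a rise with no overlap (0.77, SE 0.12, limma adjusted p = 0.000446). *Mycn*, a MYC family transcription factor, was also higher (0.30, SE 0.075, limma adjusted p = 0.0126), a call lost without wild-type replicate 2 (adjusted p = 0.0523) or replicate 3 (0.0689). Of the 4 other CDK inhibitor genes that passed the filter, 1 was called: *Cdkn1a*, which encodes p21, read 267, 278 and 171 in wild-type and 402, 334 and 686 in *Rdh10* KO. The rise was the largest among the cell cycle genes called (0.95, SE 0.23, limma adjusted p = 0.00979), and it was missed without wild-type replicate 3, the lowest library (0.73, adjusted p = 0.0683).

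In mitosis, 5 of 20 regulators, 6 of 23 genes of the kinetochore and checkpoint and 1 of 25 genes of the spindle, condensin and cytokinesis were lower, and 0, 1 and 3 were higher. The lower shares were thus 25%, 26.1% and 4%, against 9.12% over all tested genes and 22.8% over genes with a mean above 1000. The higher shares were 0%, 4.35% and 12%, against 10.3% and 19%. The medians were -0.11, -0.16 and 0.074. With the trend removed the spindle list had 4 lower and 4 higher genes of the 25 and a median of -0.014. *Pttg1*, which encodes securin, fell (log2 fold change -0.65, SE 0.12, limma adjusted p = 0.00212), and so did the centromere genes *Cenpu* (-0.55, SE 0.096, limma adjusted p = 0.00133) and *Cenpm* (-0.49, SE 0.10, limma adjusted p = 0.00413). The other lower regulators were *Pbk*, *Cdca5*, *Cdca3* and *Nek2*, and the lower spindle gene was *Kif23*, all named after their values were seen. The higher genes were *Ncapd2* of condensin (0.37), *Anln* (0.35), which encodes the anillin of the cleavage furrow, *Hmmr* of the spindle (0.29) and *Knl1* of the kinetochore (0.31), with limma adjusted p of 0.00881, 0.00466, 0.0111 and 0.0228. The call was lost for *Ncapd2* without wild-type replicate 3 (adjusted p = 0.0589), for *Hmmr* without wild-type replicate 1 (0.066) or 2 (0.0586), and for *Knl1* without any 1 wild-type library or *Rdh10* KO replicate 2 (0.0696 to 0.108). With the trend removed, 51 of the 141 genes were lower and 9 higher, with *Knl1* no longer called (0.14, adjusted p = 0.222).

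**Figure D5:**
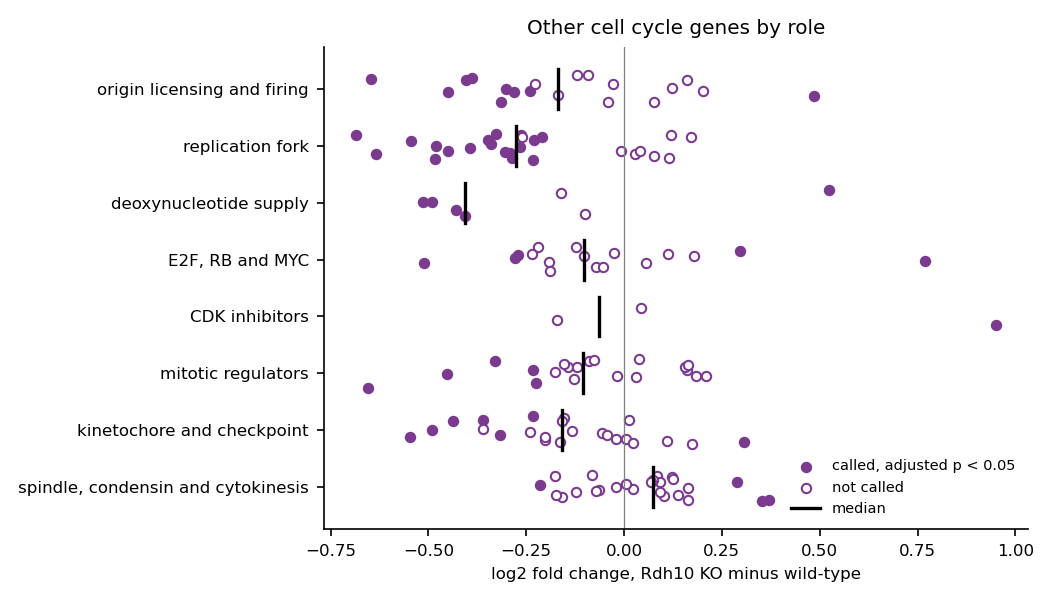
Log2 fold change, *Rdh10* KO minus wild-type, of 140 of the other cell cycle genes, 1 row per role; filled circles are called at a limma adjusted p below 0.05, open circles are not, and vertical bars are medians over the genes of each list. *Cdkn2b*, a gene with few reads, lies outside the axis and is left out; the lower genes gather in the replication fork (median -0.28) and deoxynucleotide supply (median -0.41).

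Markers of endothelium moved with genotype. Of 9 endothelial markers 6 were higher and none lower, against 10.3% higher and 9.12% lower over all genes, among them *Flt1* (log2 fold change 1.38) and *Sox17* (1.08), and their summed level was 3388 to 3770 normalised counts in wild-type and 5372 to 5474 in *Rdh10* KO. No endothelial marker was at 0. Of 13 markers of optic vesicle and retina 4 were lower, *Dct* (-3.46), *Vax2* (-2.02), *Pmel* (-2.01) and *Lhx2* (-0.79), and 3 were higher, *Rax* (0.64), *Otx2* (0.53) and *Six3* (0.48). The falls of *Dct* and *Vax2* rest on few reads. *Dct* read 52.2, 71.2 and 62.1 normalised counts in wild-type and 2.15, 12.8 and 5.88 in *Rdh10* KO. *Vax2* read 28.65, 17.8 and 30.1 in wild-type and 5.01, 7.47 and 5.88 in *Rdh10* KO. The levels of *Rax* and *Six3* overlapped between the genotypes, and both genes were called in 1 of the 6 fits that left out a library, the fit without *Rdh10* KO replicate 1, with fold changes of 0.45 to 0.94 and 0.31 to 0.72 over the 6 fits. The call for *Lhx2* was lost without any 1 wild-type library (fold changes of -0.96 to -0.46, adjusted p up to 0.0521), and the other 4 were called in all 6 fits. The sums over the 13 markers were 5648 to 5889 in wild-type and 4855 to 7060 in *Rdh10* KO, and *Tyr*, a pigment cell marker, was at 4.45 or less in every library. Of 13 markers of facial mesenchyme 2 were lower and 2 higher, the latter *Col1a1* (0.82) and *Col3a1* (0.38). The lists for forebrain progenitors, postmitotic neurons and surface ectoderm, with 9, 10 and 9 markers, each had 1 lower and 1 higher gene, a share near that over all genes. Sums over the 10 neuronal markers overlapped, at 10405 to 12655 in wild-type and 10056 to 12617 in *Rdh10* KO. Blood markers were not called (0 of 10), and their sum was 101021 to 135827 in wild-type and 51251 to 157173 in *Rdh10* KO, with the lowest value in *Rdh10* KO replicate 1. Without that library 13 of the 46 cell cycle genes were lower and 6 higher, beside 2068 and 2139 over all genes tested. The part of these shifts in the cell cycle results was not tested.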

How the data were processed

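Poly(A) RNA was sequenced from 6 libraries (NEBNext Ultra II Directional kit, NovaSeq). Per the labels and the study's methods, reads were aligned to mm10 with TopHat, and the methods describe FPKM normalisation. The deposited values behave otherwise: they are counts divided by 1 factor per library (signal), since 100% of values in each library were whole multiples of the value of 1 read (tolerance 0.1 read), a value shared by all genes whatever their length. Software versions and strand setting of the counting are not given in the sources used here. Of 26438 table lines, 1 named no gene and was left out.

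The values were tested as log2(value + 0.1) in genes with a mean above 0.5, with limma 3.58.1 (R 4.3.3; lmFit and eBayes with intensity trend), 3 libraries against 3, no covariate, and Benjamini-Hochberg adjustment over 22921 genes. Libraries were separate pools of embryos per the study's methods. Pairs of related genes were compared by exact two-sided permutation. Transcript lengths and gene coordinates came from GENCODE M21 (GRCm38), matched for 99.4% of genes. The length and GC trend was fitted in each library to the deviation of each gene from its mean, with splines of 4 df, and subtracted. Alternatives were other pseudocounts, filters and scalings, no intensity trend, a replicate block, edgeR 4.0.16 and DESeq2 1.42.0 on the recovered reads, other thresholds and each library left out. On simulated data limma recovered 75% of 1.5-fold and 99% of 2-fold changes with 4 other genes called among 22128. Both genotypes were simulated with the same spread per gene, so these numbers do not show the error rate in the real libraries. With a length trend simulated and left in, 1436 other genes were called among 22001, and with it removed 6 among 21890. The simulated trend followed the same transcript length that the removal fits. The simulation therefore cannot show how complete the removal was in the real libraries.

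The 46 genes and the other lists were chosen with earlier results of these data known. All 46 were named, with *Rdh10*; of the other cell cycle genes, the 10 largest called changes in each direction, and of each marker list the 2 called genes with the largest change. Further genes named to account for small counts were chosen after their values were seen. Some genes that this rule picks are not reported here.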

Additional observations from a re-analysis of the deposited data

How the results depend on the processing

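Lower calls among the 46 genes numbered 15, and 14 to 17 under other pseudocounts, filters, scalings, edgeR and DESeq2. Over all genes lower calls numbered 2091, and 1965 to 2378 under these settings. Without limma's intensity trend 0 lower and 0 higher genes were called by limma, with 0 in each role. That fit called 2 and 0 among the other cell cycle genes, and 197 and 448 over all genes. At an unadjusted p below 0.05 it gave 16 and 4 of the 46, and 2733 and 2982 of all 22921 genes. The quasi-likelihood test of edgeR gave 16 and 6 of the 46, and 2190 and 2608 over all genes. DESeq2 gave 17 and 6, and 2242 and 2461 over all genes. In the main fit 0 and 0 lay beyond a log2 of 0.85, with 0 in each role. Beyond it were 0 and 1 among the others, and 203 and 552 over all. At an adjusted p below 0.01 there were 9 and 3 (S phase 5 and 0; 0 lower in mitosis), 25 and 5 among the others, and 1052 and 1386 over all. Trend removal gave 1 higher gene, 8 lower in G1 and G1/S control, 0 higher in S phase and 0 higher in mitosis, and turned the sign of *Pola1* (-0.050), *Cdk6* (-0.29), *Mki67* (-0.096), *Cenpf* (-0.067) and *Kif11* (-0.063). Quantile normalisation and edgeR's likelihood ratio test each left 1 lower gene of mitosis, and quantile normalisation moved that median to -0.031. Leaving out 1 library gave 9 to 13 lower and 2 to 6 higher genes (9 lower without wild-type replicate 1; 2 higher without wild-type replicate 1 or 3); S phase 5 to 8 and 0 to 1; G1 and G1/S control 3 to 5 lower; mitosis 0 to 2 and 1 to 4, with a median of -0.076 to -0.030; others 21 to 43 and 4 to 8; all genes 992 to 2068 and 1491 to 2139, the lowest without wild-type replicate 2. It turned the sign of *Cdt1* (-0.015 to 0.071, negative without wild-type replicate 3), *Pola1* (-0.051 to 0.084, negative without wild-type replicate 1 or *Rdh10* KO replicate 2), *Bub1* (-0.024 to 0.11, negative without *Rdh10* KO replicate 2) and *Kif11* (-0.048 to 0.031, negative without wild-type replicate 1 or 2 or *Rdh10* KO replicate 2). The replicate numbers showed no pairing (correlations of same-numbered libraries -0.03, -0.03 and -0.07). With the replicate block 10 of the 46 were lower, 9 of them among the 15, and 3 higher. S phase had 5 and 0, mitosis 0 lower, others 29 lower, and all genes 1387 lower and 1715 higher. The leave-one-out fits also held fewer libraries, and the cause of these differences was not tested. With 3 libraries a group, limma recovered 75% of simulated 1.5-fold changes. Smaller changes, which most of the 46 genes showed, were not simulated, so the share of them that was missed is not known.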
